A study of Mus musculus with 62 samples.

Results

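The genes of calcineurin and of its RCAN regulators were examined in bulk transcriptomes of mouse nucleus accumbens (NAc) and prefrontal cortex (PFC). The 7 genes, Rcan1, Rcan2, Rcan3, Ppp3ca, Ppp3cb, Ppp3cc and Ppp3r1, were chosen by symbol at a time when results of these counts were known, and all 7 were among the 11121 genes counted. Which measured values led to that choice is not recorded. The differences of the members are therefore a description, given with FDRs adjusted over all genes tested, and no statement about the family as a whole rests on them. All animals were male wild-type C57BL/6j mice of 15 weeks. Unstressed control mice (CTR) were kept without the stress protocol. The others went through multimodal chronic restraint stress (mCRS), in which a mouse is confined to a tube every day. The conditions changed from session to session, and tissue was taken days after the last session. Mice of both groups were put through social interaction, forced swim and saccharin preference tests before tissue was taken. The PFC gave 15 CTR and 15 mCRS libraries, and the NAc gave 16 CTR and 16 mCRS libraries.

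Calcineurin is the protein phosphatase that calcium and calmodulin switch on, and it is abundant in neurons. Each enzyme joins a catalytic A subunit, encoded by Ppp3ca, Ppp3cb or Ppp3cc, to a calcium-binding B subunit, which Ppp3r1 encodes in the brain. Active calcineurin removes phosphate from NFAT transcription factors, which then enter the nucleus, from the dephosphins of synaptic vesicle endocytosis, and from regulators of other phosphatases. RCAN proteins bind the catalytic subunit and can inhibit it. Transcription from an internal start of Rcan1 is known to be driven by NFAT, which closes a feedback loop.

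Sequences before the transcription starts of Rcan1, Rcan2 and Ppp3r1 are shown because Rcan1 is the textbook NFAT target of the group and because Rcan2 and Ppp3r1 were the members whose levels passed the threshold between regions. They come from RefSeq on GRCm38.p6, where 5 of the 7 members matched, with 8 starts between them. Each run ends at the base before the start, or before the first base that the GENCODE annotation of GRCm38 places in an exon. Capitals mark GGAAA, the core letters of NFAT binding sites, or TTTCC, the same core on the other strand; no other motif was searched. The 2 starts of Rcan1 lie on the minus strand, at chr16:92466170-92466419 for the outer start and at chr16:92400079-92400328 for the internal start. The run before the first start of Rcan2 is chr17:43801102-43801350 on the plus strand, and that before Ppp3r1 is chr11:17159048-17159262 on the plus strand.
Rcan1, outer start: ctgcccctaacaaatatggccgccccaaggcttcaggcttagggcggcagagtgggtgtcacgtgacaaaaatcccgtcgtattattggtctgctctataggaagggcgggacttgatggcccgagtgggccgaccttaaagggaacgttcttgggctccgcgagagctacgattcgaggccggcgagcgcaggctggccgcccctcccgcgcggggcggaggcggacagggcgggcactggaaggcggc
Rcan1, internal start: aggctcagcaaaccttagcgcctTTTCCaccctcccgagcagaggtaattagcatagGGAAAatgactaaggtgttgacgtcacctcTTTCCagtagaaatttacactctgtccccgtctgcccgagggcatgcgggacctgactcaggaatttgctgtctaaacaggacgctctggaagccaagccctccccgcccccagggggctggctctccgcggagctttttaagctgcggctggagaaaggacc
Rcan2, first start: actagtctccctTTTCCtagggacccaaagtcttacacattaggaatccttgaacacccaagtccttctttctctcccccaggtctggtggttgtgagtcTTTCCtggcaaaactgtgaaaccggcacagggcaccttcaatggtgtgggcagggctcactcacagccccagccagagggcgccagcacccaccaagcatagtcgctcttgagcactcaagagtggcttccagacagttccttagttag
Ppp3r1, start: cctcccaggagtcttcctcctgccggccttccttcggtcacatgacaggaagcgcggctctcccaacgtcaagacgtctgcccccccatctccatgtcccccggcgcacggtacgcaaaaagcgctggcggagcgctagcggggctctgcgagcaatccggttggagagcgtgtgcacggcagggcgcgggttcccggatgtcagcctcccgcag

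The core occurred 3 times before the internal start of Rcan1 and not at all before its outer start. It occurred 2 times before the first start of Rcan2 and not in the 215 bases shown for Ppp3r1. Among the starts not shown, it occurred 3 times before Ppp3cb and 1 time before Rcan3, and not at all before the other 2 starts of Rcan2, in windows of 250 bases. Of 32851 mouse windows of 250 bases before a start, 55.6% held the core at least once and 6.4% held it 3 or more times. So most windows hold these letters, and their presence says nothing about binding in these tissues.

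Library totals lay between 945286 and 4857359 counts. Levels are given in CPM, counts scaled to a common library total after TMM normalisation. The method reads the 3′ ends of transcripts, so CPM were compared between libraries and never between genes. The labelled regions matched their markers: the summed level of 6 cortical excitatory neuron genes was 760 to 1461 CPM in the PFC CTR libraries and 43.8 to 300.4 CPM in the NAc CTR libraries. In NAc CTR replicate 7, however, 7 striatal projection neuron genes summed to 239 CPM, against 2531 to 5913 CPM in the other NAc CTR libraries, and the hypothalamic genes counted (Avp and Oxt) summed to 2428 CPM, against at most 606 CPM in the others. In NAc mCRS replicate 10, the choroid plexus genes counted (Ttr and Enpp2) summed to 23869.5 CPM, against at most 368 CPM in the other NAc mCRS libraries. For the members between regions, for the ratios in the NAc and for the calls of pathway and marker genes, what changed without these libraries is given. In bulk tissue, fewer cells of a type and less RNA per cell cannot be told apart.

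The spread between libraries of a group was larger than counting error for every member. It exceeded the counting error at the mean count in all 28 combinations of gene and group, by 5.3 to 19.6 times. The share of all genes that exceed it was not computed, so this is not read as a trait of the members. Ppp3ca, which encodes the main catalytic subunit of the forebrain, had an SD of 18.7% to 28.4% of the mean CPM in the 4 groups, and Ppp3r1 one of 19.4% to 25.4%. Rcan1 varied by 66.2% to 81.0%. Ppp3cc, the catalytic gene best known from testis, varied by 120.1% to 242.1%, and its counts ranged from 0 to 141 per library. The plot of the spread against counting error places the RCAN genes and Ppp3cc above the other subunit genes in every group, though for Rcan2 only narrowly in the NAc (29.9% in CTR and 38.2% in mCRS libraries).

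**Figure D1:**
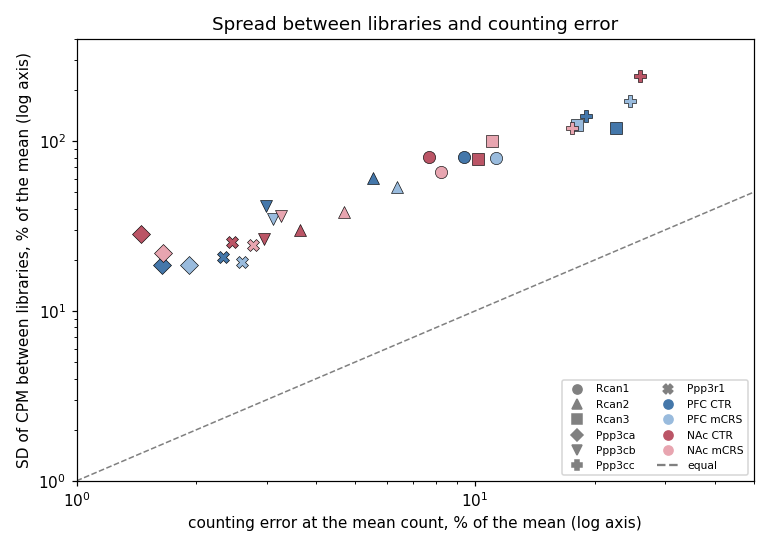
Each point is 1 member in 1 group, with the counting error at its mean count on the x axis and the SD of its CPM between libraries on the y axis, both in percent of the mean and on log axes. All 28 points lie above the dashed line of equality, from Ppp3ca in PFC CTR at 18.7% to Ppp3cc in NAc CTR at 242.1%.

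The comparison of the unstressed regions asks where the enzyme and its regulators are expressed. Between PFC and NAc in CTR mice, 2 of the 7 members passed an FDR below 0.05: Ppp3r1 was higher in the PFC and Rcan2 was higher in the NAc. Of all 11025 genes tested, 5.44% passed, 3.56% as higher in the PFC and 1.89% as higher in the NAc. In mCRS mice 1 of 7 members passed, Ppp3r1, where 6.49% of all genes passed, 3.86% as higher in the PFC and 2.62% as higher in the NAc. The split depended on the processing: edgeR placed 392 of 600 calls higher in the PFC in CTR and 426 of 715 in mCRS mice, the same test with RLE scaling placed 56.5% and 53.4% of 554 and 701 calls there, and DESeq2, which changes test and scaling, 52.9% and 48.5% of 756 and 971. The members were chosen with results known and are few, so nothing is read from their share and they are described one by one.

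Ppp3r1 (ENSMUSG00000033953, chr11:17159263-17200375, plus strand) encodes the B subunit, without which the catalytic subunits are not active. Its level in PFC CTR libraries was 533 CPM at the lowest, 716 CPM at the median and 1109 CPM at the highest. In NAc CTR libraries the lowest, median and highest levels were 362, 474 and 771 CPM. All 15 PFC CTR libraries lay above the NAc CTR median, 7 of them above the highest NAc CTR library, and 9 NAc CTR libraries lay below the lowest PFC CTR library, so the groups overlapped only in part. The log2 fold change of PFC against NAc was 0.56 ± 0.13 (SE), a 1.48-fold difference (edgeR FDR 0.00209). In mCRS mice the lowest, median and highest levels were 522, 694 and 944 CPM in the PFC and 248, 503 and 676 CPM in the NAc, with a log2 fold change of 0.56 ± 0.13 (SE) and an FDR of 0.00183. These are other libraries than those of the CTR contrast, fitted with a shared spread. Without NAc CTR replicate 7 the CTR value was 0.58 (FDR 0.00185), and without NAc mCRS replicate 10, the lowest NAc mCRS library for this gene, the mCRS value was 0.51 (FDR 0.00476). Of the 3228 exon bases of Ppp3r1, 462 are shared with Wdr92 on the same strand, and 195 of 902 stretches of 50 bases near its 3′ ends also occur in Wdr92, so part of its reads may have been left uncounted.

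Rcan2 (ENSMUSG00000039601, chr17:43801351-44039516, plus strand) encodes the RCAN protein best known from brain, heart and muscle. In NAc CTR libraries it was measured at 140 CPM at the lowest, 232 CPM at the median and 386 CPM at the highest. PFC CTR libraries ranged from 17.4 CPM over a median of 121 CPM to 287 CPM. The gene was low in most of the PFC: 10 of 15 PFC CTR libraries lay below every NAc CTR library, although the ranges overlapped. The log2 fold change of PFC against NAc was -0.85 ± 0.27 (SE), 1.81-fold higher in the NAc (edgeR FDR 0.0383). Without NAc CTR replicate 7, whose Rcan2 level of 289 CPM was the 13th from below of 16, the value was -0.84 and the FDR 0.0520, so that 1 library decided the call. In mCRS mice the PFC ranged from 19.7 CPM over 130 CPM to 252 CPM and the NAc from 40.6 CPM over 166 CPM to 250.1 CPM, and the log2 fold change was -0.32 ± 0.27 (SE, FDR 0.655).

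Genes of other cell types differed between the regions as well. The 6 oligodendrocyte genes summed to 1677 to 5890 CPM in PFC CTR and 5247 to 7787 CPM in NAc CTR libraries. At an FDR below 0.05, 5 of the 6 were higher in the NAc, where 1.89% of all genes tested were. By correlation of log2 CPM over the 62 libraries, the 3 genes most like Rcan2 were Mobp, a myelin gene (r = 0.61), Rrn3, a factor of RNA polymerase I (r = 0.58), and Ywhaq, a 14-3-3 protein (r = 0.56). Those most like Ppp3r1 were Lingo1, a neuronal membrane protein (r = 0.71), Nrgn, which binds calmodulin (r = 0.69), and Neurod2, a transcription factor of cortical excitatory neurons (r = 0.68). These libraries come from 2 regions and share depth and tissue make-up. The part of oligodendrocytes or of cortical neurons in the differences of Rcan2 and Ppp3r1 was not tested.

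Ppp3cb (ENSMUSG00000021816, chr14:20499364-20546573, minus strand) encodes the other catalytic subunit common in brain. In the PFC its median level was 483 CPM in CTR (range 106 to 802) and 539 CPM in mCRS libraries (255 to 908). The NAc gave 356 CPM in CTR (185 to 532) and 324 CPM in mCRS libraries (172 to 658). Of the PFC libraries, 12 of 15 in CTR and 13 of 15 in mCRS lay above the NAc median of the same treatment. The log2 fold change of PFC against NAc was 0.38 ± 0.18 (SE, FDR 0.332) in CTR and 0.55 ± 0.18 (SE, FDR 0.0576) in mCRS mice. The mCRS value passed the threshold when only the mCRS libraries were fitted (0.58, FDR 0.0306) and when genes needed at least 10 counts in 50% of the libraries (0.57, FDR 0.0375). Without NAc mCRS replicate 10 it was 0.52 (FDR 0.0839), and without NAc CTR replicate 7 the CTR value was 0.41 (FDR 0.283). The call for Ppp3cb thus depends on the fit.

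Ppp3ca (ENSMUSG00000028161, chr3:136670124-136937727, plus strand) had a PFC median of 1483 CPM in CTR (range 895 to 1998) and 1392 CPM in mCRS libraries (1102 to 2170). Its NAc median was 1503 CPM in CTR (463 to 2118) and 1304 CPM in mCRS libraries (989 to 2260). No group stood apart from the others. The log2 fold change of PFC against NAc was 0.07 in CTR mice (95% confidence interval -0.17 to 0.31) and 0.01 in mCRS mice (-0.23 to 0.25), so differences beyond 1.24-fold lay outside both intervals. The lowest library of each NAc group for this gene was the library set apart by its markers, without which the CTR value was 0.01 and the mCRS value -0.02.

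Rcan1 and Rcan3 were spread over wide ranges. Rcan1 (ENSMUSG00000022951, chr16:92391953-92470867, minus strand), the RCAN gene on the mouse counterpart of the Down syndrome region, had PFC medians of 40.4 CPM in CTR (range 0.438 to 153) and 36.1 CPM in mCRS libraries (4.29 to 151). The NAc medians were 40.6 CPM in CTR (0.557 to 129) and 51.5 CPM in mCRS libraries (2.86 to 131). Its log2 fold change between regions was 0.15 ± 0.50 (SE, FDR 0.978) in CTR and -0.38 ± 0.50 (SE, FDR 0.821) in mCRS mice, and 0.07 in CTR mice without NAc CTR replicate 7 and -0.44 in mCRS mice without NAc mCRS replicate 10. Rcan3 (ENSMUSG00000059713, chr4:135412308-135433853, minus strand), the third member of the RCAN family, had PFC medians of 4.39 CPM in CTR (range 0 to 33.3) and 11.2 CPM in mCRS libraries (0 to 65.3). In the NAc they were 23.1 CPM in CTR (0.663 to 78.6) and 19.6 CPM in mCRS libraries (0 to 95.7). Of the PFC CTR libraries, 14 of 15 lay below the NAc CTR median for Rcan3. The log2 fold change in CTR mice was -1.86 ± 0.78 (SE, FDR 0.214), and DESeq2 placed it at -1.92 with an FDR of 0.0490; in mCRS mice it was -0.73 ± 0.76 (SE, FDR 0.748). Without NAc CTR replicate 7 the CTR value of Rcan3 was -1.83, and without NAc mCRS replicate 10 the mCRS value was -0.64.

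Ppp3cc (ENSMUSG00000022092, chr14:70217865-70289471, minus strand) was at or near 0 in many libraries. In the PFC it had no count in 3 of 15 CTR and 8 of 15 mCRS libraries, in the NAc in 7 of 16 CTR and 3 of 16 mCRS libraries, and no count allows up to 0.564 to 2.90 CPM at the depth of these 21 libraries (3 counts, counting error only). The highest library of each group reached 45.2, 40.0, 52.1 and 42.0 CPM in the same order. Its log2 fold change of PFC against NAc was 0.74 ± 1.08 (SE, FDR 0.928) in CTR and -0.79 ± 1.09 (SE, FDR 0.833) in mCRS mice. A difference of several fold in either direction was not detectable for this gene.

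**Figure D2:**
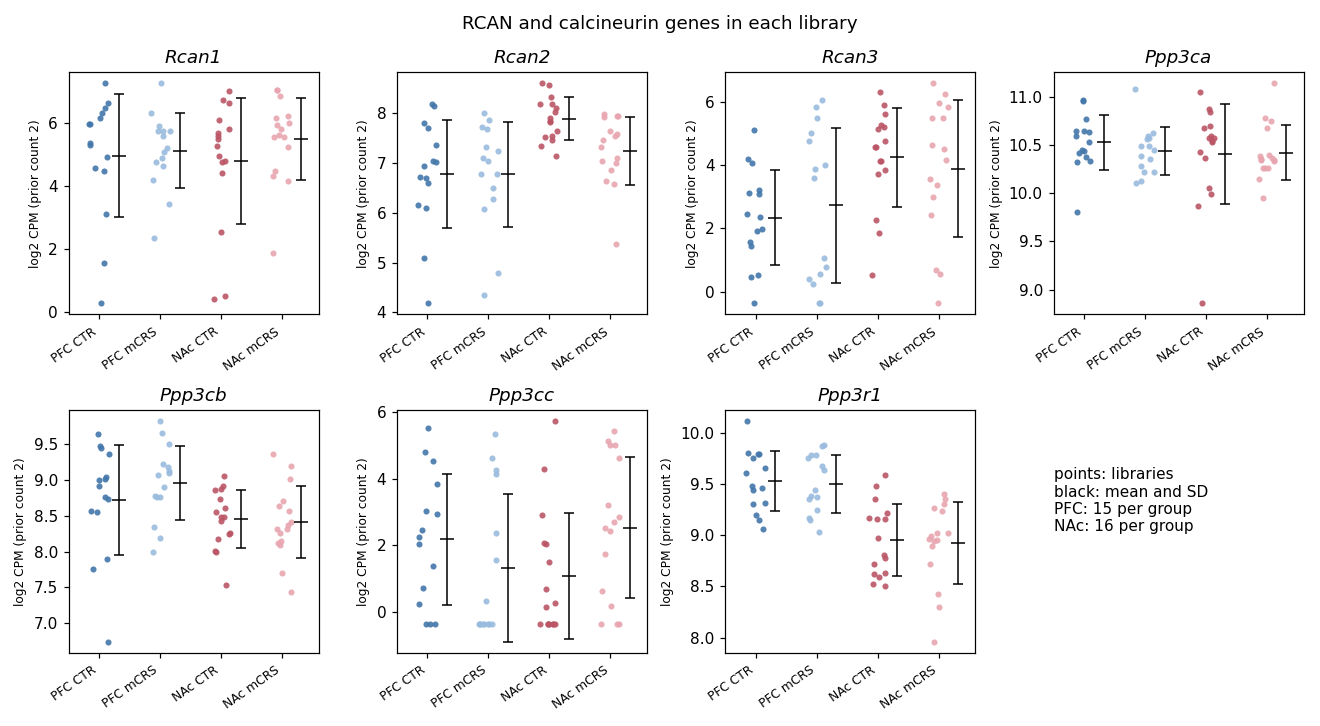
Points are libraries, with log2 CPM (prior count 2) of each member on the y axis and the 4 groups on the x axis; black marks show mean and SD. Ppp3r1 sits higher in both PFC groups (means 9.53 and 9.50) than in both NAc groups (8.96 and 8.92), and Rcan2 is highest in NAc CTR (mean 7.88).

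The comparison of mCRS with CTR asks whether chronic stress changed the level of the enzyme. In the PFC, 0 of the 6 members tested passed an FDR below 0.05 by edgeR and 0 had an unadjusted p below 0.05, where 0% and 3.52% of the 8916 genes tested did. Ppp3cc was not tested in either region alone because it failed the filter on low counts. For the subunit genes tested, no difference was detected, which does not exclude a change within their intervals. Their log2 fold changes in the PFC were -0.09 ± 0.11 (SE) for Ppp3ca, 0.16 ± 0.20 for Ppp3cb and -0.02 ± 0.13 for Ppp3r1. The 95% confidence interval of Ppp3ca ran from -0.31 to 0.14 and that of Ppp3r1 from -0.28 to 0.23, while that of Ppp3cb ran from -0.23 to 0.56.

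The RCAN genes of the PFC were measured less tightly. Rcan1 had a log2 fold change of -0.19 ± 0.54 (SE) and Rcan2 of -0.04 ± 0.32. Rcan3 had the largest value of the members, 1.26 ± 0.90 (SE), with a 95% confidence interval from -0.54 to 3.06 and an FDR of 1.0 by edgeR. In PFC mCRS, 7 of 15 libraries held at most 3 Rcan3 counts and 3 lay above the highest PFC CTR library, so mCRS libraries were at both ends of the range. The mtDNA share of the counts was 8.86% to 18.2% in PFC CTR and 10.2% to 22.9% in PFC mCRS libraries. With library sizes that leave out the mtDNA genes, Rcan3 stood at 1.27 and Ppp3ca at -0.08. With the replicate number as a block, Rcan3 stood at 0.47 ± 1.49 (SE, FDR 1.0).

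In the NAc, 0 of the 6 members tested passed the FDR threshold and 1, Rcan2, had an unadjusted p below 0.05, where 0.00986% and 2.04% of the 10141 genes tested did. Rcan2 was lower in mCRS libraries. With the levels given above, 7 of 16 NAc mCRS libraries lay below the lowest NAc CTR library, 7 of 16 NAc CTR libraries lay above the highest NAc mCRS library, and 12 of 16 NAc mCRS libraries lay below the NAc CTR median. The log2 fold change was -0.58 ± 0.19 (SE, 95% confidence interval -0.96 to -0.19), or 0.671-fold, and its unadjusted p of 0.00432 ranked 9th of all genes. After adjustment the FDR was 1.0 by edgeR and 0.880 by DESeq2, so the difference did not pass. With any single library left out the value lay between -0.63 and -0.50.

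The oligodendrocyte genes, one of which was the gene most like Rcan2, summed to 5247 to 7787 CPM in NAc CTR and 5044 to 8276 CPM in NAc mCRS libraries, with medians of 6641 and 6430 CPM. The part of oligodendrocytes in the lower Rcan2 values of the NAc mCRS libraries was not tested. In NAc mCRS replicate 10, Rcan2 was at 130 CPM, and without that library the value was -0.55. The difference between the regions in the mCRS effect on Rcan2, PFC minus NAc, was 0.53 ± 0.37 on the log2 scale (SE, 95% confidence interval -0.21 to 1.28, edgeR FDR 1.0). Neither an mCRS effect on Rcan2 in the NAc nor a difference between the regions in that effect passed the threshold. The region difference in CTR mice, the mCRS difference in the NAc and the interaction all use the same NAc CTR libraries. They are therefore not separate observations.

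The other members of the NAc lay close to 0 or had wide errors. The log2 fold changes were -0.03 ± 0.12 (SE) for Ppp3ca, -0.01 ± 0.16 for Ppp3cb and -0.03 ± 0.14 for Ppp3r1. Their 95% confidence intervals lay within -0.32 and 0.31. Rcan1 stood at 0.32 ± 0.46 (SE) and Rcan3 at 0.13 ± 0.61. For the difference between regions in the mCRS effect, 0 of 7 members passed the FDR threshold and 0 had an unadjusted p below 0.05, where 0.00907% and 3.09% of the 11025 genes did.

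**Figure D3:**
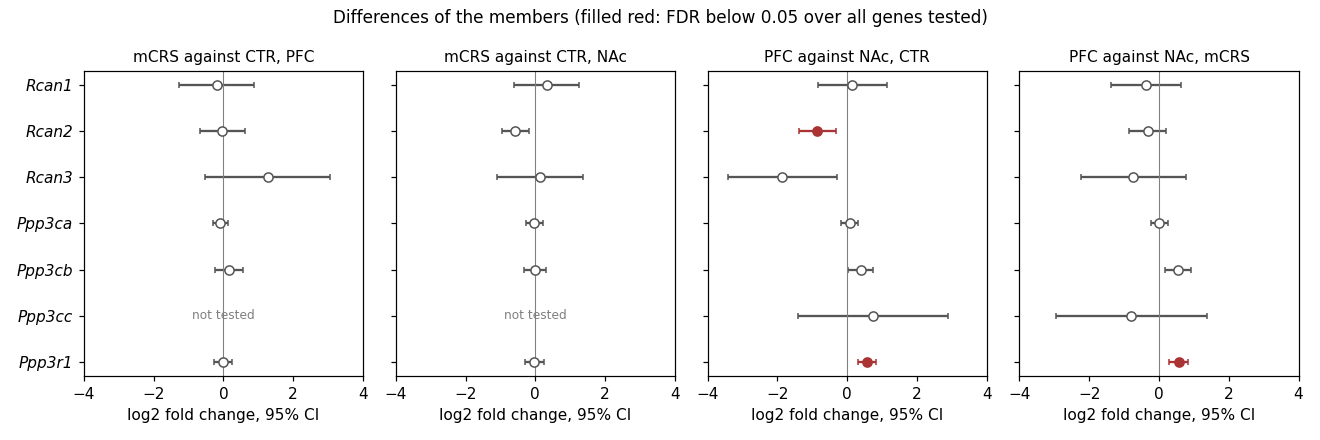
Log2 fold changes of the members with 95% confidence intervals (x axis) for mCRS against CTR in each region and for PFC against NAc in each treatment; filled red points have an FDR below 0.05 over all genes tested. Only Rcan2 in CTR (-0.85) and Ppp3r1 in CTR (0.56) and mCRS mice (0.56) are filled.

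Ratios of counts within a library remove the scaling of the library. In the PFC, Ppp3cb made up 23.5% ± 8.93 (SD, n = 15) of the counts of the 3 catalytic genes in CTR and 26.9% ± 6.90 in mCRS libraries, against 21.4% ± 8.95 (SD, n = 16) and 20.4% ± 6.23 in the NAc. The groups overlapped widely. All libraries lay between 6.40% in PFC CTR replicate 1 and 50.3% in NAc CTR replicate 7. For each 100 catalytic counts there were 39.2 ± 11.5 (SD) Ppp3r1 counts in CTR and 38.9 ± 8.62 in mCRS libraries of the PFC, and 30.2 ± 12.1 and 28.5 ± 6.39 in those of the NAc. The median of this Ppp3r1 ratio was 36.6 in PFC CTR (range 25.5 to 67.8) and 27.4 in NAc CTR libraries (17.7 to 63.7). It uses the same Ppp3r1 counts as the test between regions, so it is not separate evidence. Counts of the 3 RCAN genes for each 100 catalytic counts were 10.2 ± 5.84 (SD) in CTR and 10.4 ± 4.93 in mCRS libraries of the PFC, and 19.1 ± 8.37 and 14.6 ± 4.29 in those of the NAc. Rcan2 supplied most of these RCAN counts, with group means from 64.0% in NAc mCRS to 77.4% in NAc CTR libraries. The RCAN ratio therefore mostly follows Rcan2 and does not describe the 3 genes alike. All 3 ratios follow the way each 3′ end was captured. They can be read between groups and not as numbers of molecules, and they were not tested. NAc CTR replicate 7 was the highest of its group in all 3 ratios, and without it the NAc CTR values were 19.4% ± 4.70 (SD, n = 15), 27.9 ± 8.40 and 18.1 ± 7.44 in the same order. Without NAc mCRS replicate 10 those of NAc mCRS were 20.3% ± 6.43 (SD, n = 15), 29.1 ± 6.14 and 14.5 ± 4.41.

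**Figure D4:**
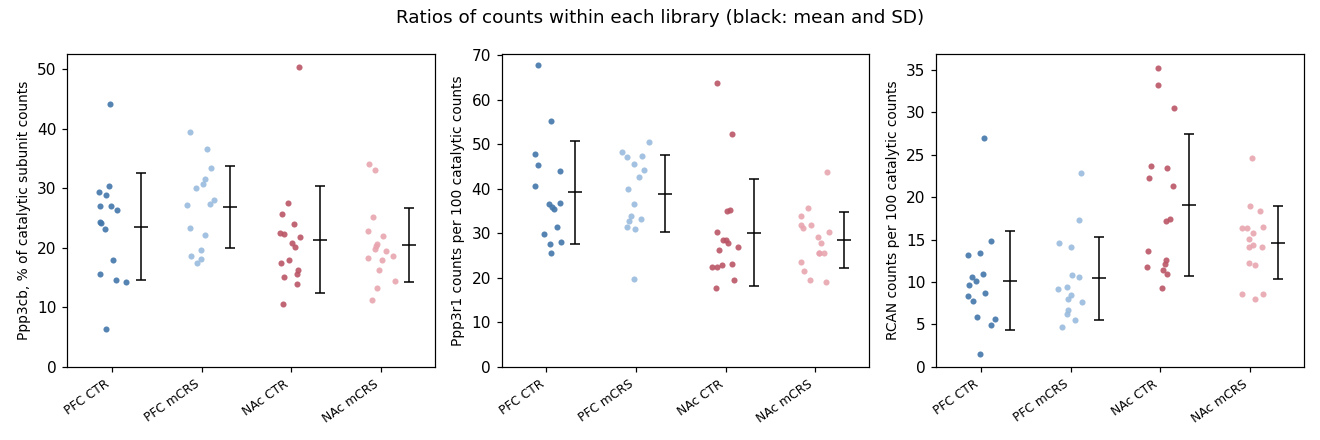
Ratios of counts within each library by group: the share of Ppp3cb in the catalytic counts (percent), Ppp3r1 counts for each 100 catalytic counts, and RCAN counts for each 100 catalytic counts. Points are libraries and black marks are mean and SD. The RCAN ratio, made up mostly of Rcan2 counts, is highest in NAc CTR (19.1 ± 8.37) and the Ppp3r1 ratio is higher in both PFC groups.

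No pair of subunit genes had a correlation between the libraries of a group that passed the threshold. Over the 3 pairs of Ppp3ca, Ppp3cb and Ppp3r1 in the 4 groups, Pearson's r of log2 CPM ranged from -0.07 to 0.49 over 12 correlations. The largest was Ppp3ca with Ppp3r1 in NAc mCRS libraries (r = 0.49, permutation p = 0.0556, adjusted 0.667). Spearman's rho for it was 0.23 (permutation p = 0.380), and r was 0.42 without the 2 libraries farthest from the median. Other pairs moved more when their 2 farthest libraries were left out. Ppp3ca with Ppp3r1 in PFC mCRS libraries went from 0.004 to 0.44, and Ppp3cb with Ppp3r1 in PFC CTR libraries from 0.03 to -0.41. The range and the largest pair thus depend on single libraries.

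The rest of the pathway was taken from lists of genes, ordered by role. Of all genes tested between regions, 5.44% passed in CTR and 6.49% in mCRS mice. The lists were chosen with results known, so nothing is read from the share of a list that passed. The 2 calmodulin genes reported here, whose protein activates calcineurin, were higher in the PFC than in the NAc of CTR mice. The log2 fold changes were 0.81 ± 0.12 (SE) for Calm2 and 0.62 ± 0.12 for Calm3, with FDRs of 4.11e-07 and 0.000165, where the median over all genes tested was -0.04. Both passed in mCRS mice, where Calm2 stood at 0.96 ± 0.12 and Calm3 at 0.62 ± 0.12.

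Of the NFAT factors, the transcription factors that calcineurin activates, 3 of 5 were tested and 0 passed between regions in CTR mice. Nfatc3 stood at -2.72 ± 1.19 (SE, FDR 0.245), Nfatc2 at -1.26 ± 0.89 (FDR 0.654) and Nfat5, which lacks the calcineurin-binding region of the others, at -0.09 ± 0.50 (FDR 0.988). The NFAT kinases, which put back the phosphate, also gave 0 of 4: Gsk3a had 0.47 ± 0.22 (FDR 0.302), Csnk1a1 0.26 ± 0.19, Gsk3b -0.25 ± 0.19 and Dyrk1a -0.06 ± 0.54.

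Among anchors and binding proteins, 1 of 8 tested passed, Ppia, the cyclophilin through which cyclosporin inhibits calcineurin, with 1.06 ± 0.24 (SE, FDR 0.00099). Akap5, which holds calcineurin at the postsynaptic membrane, stood at -1.02 ± 0.43 (FDR 0.206) in CTR mice and passed in mCRS mice at -1.39 ± 0.43 (FDR 0.0321). Chp1, a calcineurin B homologue, stood at 0.53 ± 0.25 (FDR 0.304) and Akap1, a mitochondrial anchor, at -1.23 ± 0.69 (FDR 0.474).

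The endocytic dephosphins gave 4 of 8 higher in the PFC and 0 lower in CTR mice, with a list median of 0.70. Of all genes tested, 3.56% passed as higher in the PFC and 1.89% as lower. The 4 were Dnm1, the dynamin that cuts vesicles from the membrane (0.85 ± 0.14 SE, FDR 6.41e-06), Eps15, an endocytic adaptor (1.02 ± 0.23, FDR 0.000975), Pip5k1c, a lipid kinase (0.95 ± 0.24, FDR 0.00427), and Snap91, a clathrin assembly protein (0.79 ± 0.20, FDR 0.00439). The same 4 passed in mCRS mice.

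Of 13 other substrates, 1 was higher and 1 lower in the PFC of CTR mice. Mef2c, an activity-dependent transcription factor, was higher (2.10 ± 0.16 SE, FDR 8.28e-19). Ppp1r1b, which encodes DARPP-32 and also marks striatal projection neurons, was lower (-2.77 ± 0.30, FDR 5.92e-12). Mef2d, a relative of Mef2c, stood at 0.64 ± 0.23 (FDR 0.0886) and Gap43, a growth cone protein, at -0.32 ± 0.15 (FDR 0.334). The same 2 genes, Mef2c and Ppp1r1b, passed in mCRS mice. No pathway gene gained or lost a call between regions, or for mCRS in the NAc, without NAc CTR replicate 7 or without NAc mCRS replicate 10.

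**Figure D5:**
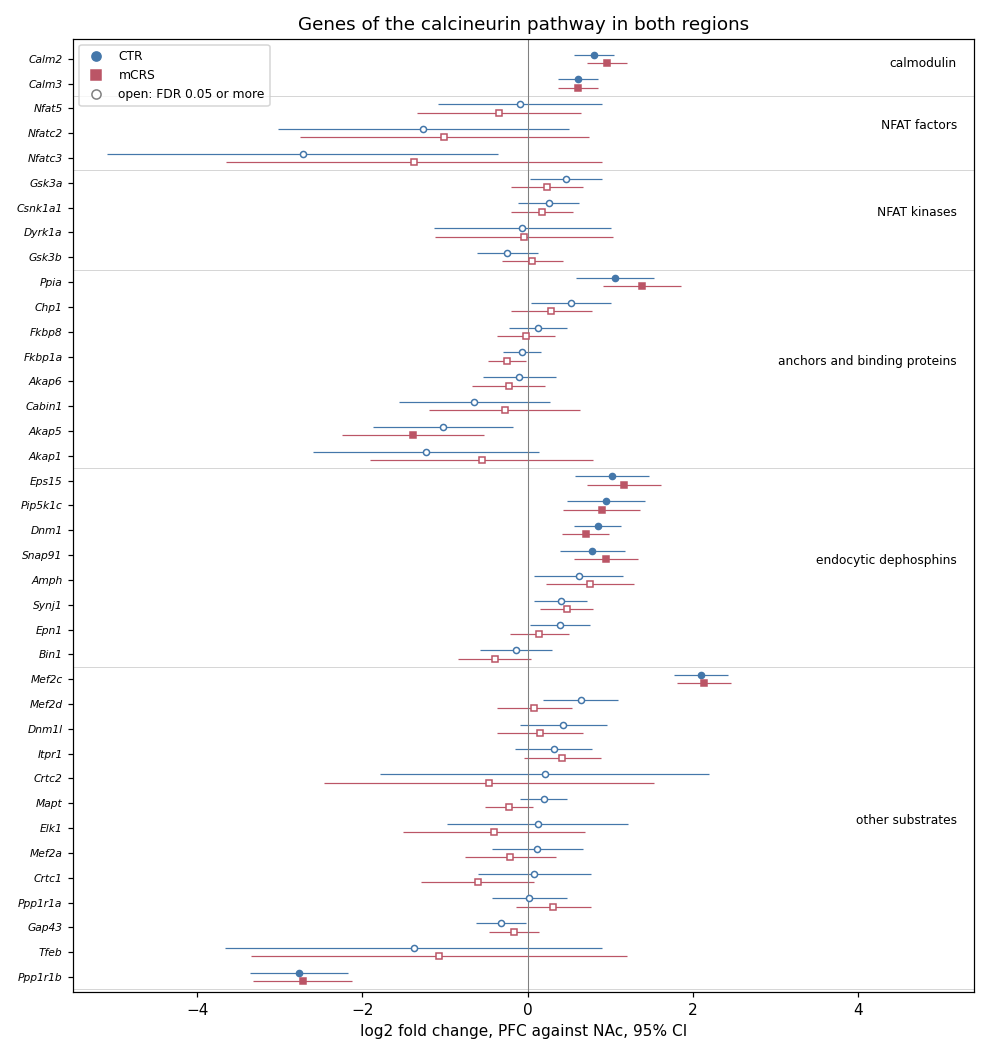
Log2 fold changes of PFC against NAc with 95% confidence intervals for the pathway genes tested, in CTR (blue circles) and mCRS mice (red squares); filled symbols have an FDR below 0.05. Both calmodulin genes and 4 of 8 endocytic dephosphins are filled to the right of 0 in both treatments, and Ppp1r1b is filled at -2.77 in CTR and -2.72 in mCRS mice.

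No gene of the 6 lists passed the FDR threshold for mCRS against CTR in either region. In the PFC, where 3.52% of all genes had an unadjusted p below 0.05, 1 of 2 calmodulin genes, 1 of 8 anchors and 1 of 12 other substrates did. Mapt, the microtubule protein tau, stood at -0.53 ± 0.15 (SE, FDR 0.531), Calm2 at 0.41 ± 0.12 (FDR 0.730) and Chp1 at -0.59 ± 0.25 (FDR 1.0). Each of the other genes of smallest p had an FDR of 1.0, with Mef2d at -0.35 ± 0.22, Ppia at 0.38 ± 0.22, Eps15 at 0.38 ± 0.23, the epsin Epn1 at -0.26 ± 0.19, Calm3 at -0.14 ± 0.12, Gsk3b at 0.21 ± 0.21, Csnk1a1 at 0.19 ± 0.20 and Nfat5, the only NFAT gene tested there, at -0.50 ± 0.59.

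In the NAc, where 2.04% of all genes had an unadjusted p below 0.05, 1 of 2 calmodulin genes and 1 of 3 NFAT factors did. Nfatc3 stood at -1.91 ± 0.88 (SE) and Calm2 at 0.24 ± 0.11, both with an FDR of 1.0. Calm2 had a positive value in both regions. The remaining genes of smallest p were the amphiphysin gene Bin1 at 0.36 ± 0.19, the calcineurin inhibitor Cabin1 at -0.70 ± 0.42, Csnk1a1 at 0.26 ± 0.17, Chp1 at -0.36 ± 0.24, the CREB coactivator Crtc1 at 0.35 ± 0.30, Calm3 at -0.15 ± 0.13, Eps15 at 0.23 ± 0.22, Mef2d at 0.20 ± 0.23, Nfat5 at -0.25 ± 0.36 and Gsk3b at -0.10 ± 0.16, each with an FDR of 1.0.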

How the data were processed

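BRB-seq libraries, which tag each RNA sample with a barcoded oligo-dT primer and read the 3′ ends of transcripts, were made from PFC and NAc tissue. Per the study's methods, the authors mapped reads with STAR to GRCm38 and kept uniquely mapped reads; the processing notes name HTSeq 0.9.1 for counting. The deposited values are unnormalized counts per gene. They were not collapsed by molecular identifiers, so counting error is a lower limit. The authors removed 2 PFC samples of poor quality. Both regions were taken from each animal, so PFC and NAc libraries of the same treatment share mice. No source used here says which PFC and NAc libraries come from 1 mouse. The tests treat every library as a separate sample, so the contrasts between regions and the interaction leave this pairing out.

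Counts were tested with edgeR 4.0.16 in R 4.3.3: TMM scaling, its default filter by group and the two-sided quasi-likelihood test, with Benjamini-Hochberg FDRs over all genes. mCRS was compared with CTR within each region; regions and the interaction were contrasts of a fit to all 62 libraries. DESeq2 1.42.0 was an alternative. Fits were tested on simulated data. SEs were derived from the F statistic. Correlations used 100000 permutations, two-sided.

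Members and gene lists were chosen with earlier results of these data known, and some genes of the lists are not reported here. Named were all 7 members, in each pathway list up to 4 genes of smallest p between CTR regions and up to 2 in each mCRS contrast, and the 3 genes most correlated with each member that passed between CTR regions. The settings without NAc CTR replicate 7 and NAc mCRS replicate 10 were added after the data had been seen, as were the ratios without these libraries.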

Additional observations from a re-analysis of the deposited data

How the results depend on the processing

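Leaving out each library of a region in turn kept the number of members called for mCRS at 0 in both regions. For the contrasts between regions, only NAc CTR replicate 7 and NAc mCRS replicate 10 were left out, so the weight of other single libraries is not known. In CTR mice the number called was 1 without NAc CTR replicate 7, where Rcan2 no longer passed, and 2 without NAc mCRS replicate 10. Of all genes, 573 of 11020 and 601 of 11017 passed there, against 600 of 11025 in the main fit. DESeq2 called 3 members, adding Rcan3, and 756 of 11121 genes. Between regions in mCRS mice, 2 members rather than 1 passed with 10 counts required in 50% of libraries and with only the mCRS libraries. Both added Ppp3cb, where 683 of 9333 and 614 of 9452 genes passed, against 715 of 11025 in the main fit. No called value of a member reversed, but uncalled values near 0 changed sign under some settings. RLE, upper-quartile and mtDNA-free scaling, no filter, thinned counts and the covariates changed no count of members called.

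Replicate numbers showed no pairing of the libraries: 0 of 15 or 16 same-number pairs correlated above 0.1 in any pair of groups. Per the study's methods, both regions were taken from each animal, so PFC and NAc libraries of the same treatment share mice. CTR and mCRS libraries cannot. No libraries known to come from the same mouse were at hand for comparison, so this check cannot tell which libraries belong together. With the replicate block, members called were 0, 0, 2, 1 and 0 in the 5 contrasts, as without it. Over all genes the block gave 1, 0, 620, 786 and 0 calls in the same order, against 0, 1, 600, 715 and 1. Rcan2 for mCRS in the NAc stood at -0.64 (FDR 1.0). The block also moved thinly counted genes. Rcan3 for mCRS stood at 0.47 in the PFC and -0.60 in the NAc, and Ppp3cc between CTR regions at 2.80.

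Over all genes, mCRS against CTR in the PFC gave 0 calls by edgeR but 5 by DESeq2, 5 in a fit of all 62 libraries, 1 without a filter and 1 with the replicate block. In the NAc, edgeR's 1, Ttr, became 0 by DESeq2, with the replicate block and with either covariate, and 2 without a filter or with all 62 libraries. With 1 library left out, calls were 0 in 15 of 32 fits of the NAc, the one without NAc mCRS replicate 10 included, and 1 in 17, and in the PFC 0 in 25 of 30, 1 in 4 and 2 in 1. The interaction's 1 became 2 with thinned counts and 0 with the stricter filter and with the replicate block. An unadjusted p below 0.05 in the PFC was found for 314 genes, against 576 by DESeq2, 540 with all libraries and 185 when the fit took in how many genes each library detected. In the NAc it was 207 against 393 by DESeq2.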

Other observations

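The marker lists show what else differed between the dissections in CTR mice at an FDR below 0.05, which 5.44% of all genes tested passed. In the PFC, 3 of 6 cortical excitatory neuron genes were higher, whereas all 7 striatal projection neuron genes, all 3 GABAergic genes and both hypothalamic genes tested were lower. Of the glial lists, 5 of 6 oligodendrocyte genes and 1 of 5 astrocyte genes were lower in the PFC, and 0 of 5 microglia genes, 0 of 4 endothelial genes and 0 of 2 choroid plexus genes passed. For mCRS against CTR, the one marker gene that passed was Ttr in the NAc, where the highest library was mCRS replicate 10. Its log2 fold change was 5.38 (FDR 0.0339) with that library and -0.46 (FDR 1.0) without it. Between regions in CTR mice, the astrocyte gene Aldoc no longer passed without NAc CTR replicate 7 (-0.36, FDR 0.0535), and Enpp2 of the choroid plexus list passed without NAc mCRS replicate 10 (0.71, FDR 0.0283).

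In NAc CTR replicate 7, where the striatal genes were lowest, Ppp3ca was at 463 CPM, the lowest of 16, and Ppp3cb at 469 CPM, the 14th from below. Ppp3cb made up 50.3% of the catalytic counts there, the highest of all NAc libraries. In NAc mCRS replicate 10, Ppp3ca at 989 CPM and Ppp3r1 at 248 CPM were each the lowest of 16.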
